A study of Danio rerio with 6 samples.

Results

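The transcripts described here encode the core machinery of cell division: cyclins and their kinases, the enzymes that switch Cdk1 on and off, mitotic kinases, the spindle checkpoint, the anaphase-promoting complex (APC/C), separase and securin, cohesin, condensin and the factors that start DNA replication. They were picked by a pattern of gene symbols. Of 21051 genes in the table, 87 had a matching symbol, and 79 of these reached a mean of 10 normalized counts over the 6 libraries and were tested among 13265 genes. Just inside that minimum were plk2b and pttg1ipa, with means of 13.4 and 14.9 normalized counts, and just outside it were a copy of fzr1 (ENSDARG00000043210, 9.35) and plk2a (8.12). The other members below it were ensaa, smc1a, cdc25d, cdc14aa, rad21b and a copy of rad21a (ENSDARG00000006092), with means of 0 to 6.82.

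RNA immunoprecipitation and sequencing (RIP-seq) had been applied to zebrafish zygotes, as each sample is labelled, while the series' design text also mentions ovary tissue. The groups were 3 libraries of RNA that came down with Tdrd6a, a germ plasm protein with Tudor domains (Tdrd6a IP), and 3 libraries of input RNA. Both groups came from fish kept under standard conditions, and the labels name no strain, genotype, clutch or time after fertilisation. Separate clutches are not stated for the replicates, so the spread behind each p-value may be technical. No precipitate with an unrelated antibody was analysed here.

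An egg stores the messenger RNAs for the first divisions, because the zygotic genome is silent at that stage. Cyclin-bound Cdk1 drives entry into mitosis, Wee kinases hold it back and Cdc25 phosphatase releases it. Once chromosomes are attached, the spindle checkpoint frees Cdc20 to activate the APC/C, which marks securin and cyclins for destruction. Separase, released from securin, then cuts the Rad21 subunit of cohesin and lets sister chromatids part.

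Recovered depth was 22466764, 4031863 and 9701595 reads in Tdrd6a IP replicates 1, 2 and 3, and 10481206 to 19804774 reads in the input libraries. A single read was worth 3.76 normalized counts in Tdrd6a IP replicate 2 and 0.682 to 1.21 in the other libraries. Of the egg markers measured, 15 of 16 were tested, and their summed level was 18514 to 21280 normalized counts in Tdrd6a IP and 17822 to 21378 in input, with 1 called higher. The list holds ccnb1, itself a member (mean 7106), and its highest gene was buc (mean 7738), so both carried much of the sums. The 3 blood markers measured summed to at most 3.6 in Tdrd6a IP and 8.2 in input. Those of zygotic activation (8 measured) summed to 15.1 to 42.2 in Tdrd6a IP and 15.7 to 71.0 in input. Those listed for ovarian somatic cells (7 measured, cyp19a1a and inha at 0 throughout) summed to 3606 to 5274 in Tdrd6a IP and 2422 to 3311 in input. These sums were mostly cyp11a1 (mean 3522), and 4 of the 7 had a mean below 10, so they chiefly follow that gene. The part of these RNAs in the results was not tested. All 11 germ plasm transcripts measured were called higher (median log2 fold change 5.48). A value is a read count scaled by a factor for its library. It is relative, so more of a transcript and less of all others cannot be told apart.

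Of the 79 members, 8 were called higher in Tdrd6a IP than in input and 1 was called lower (limma, adjusted p under 0.05). Higher were espl1, cdk6, cdc45, rad21a, bub3, aurkb, cdc20 and ccna1, by 2.45-fold to 5.42-fold, and lower was pttg1. Over all genes tested 4.46% were called higher and 1.86% lower, against 10.1% and 1.27% of the members. The median log2 fold change was 0.05 for the members and -0.01 for all genes, and 40 members had an estimate above 0 (49.6% of all genes did). Every Tdrd6a IP library lay above every input library for 22 members and below for 13 (14.6% and 12.9% of all genes). With replicate number as a block, 10 members were higher and 3 lower, against a background of 6.97% and 3.52%. With no adjustment (p under 0.05) 20 were higher and 12 lower, where all genes gave 12.2% and 9%. From the recovered reads, edgeR called 7 higher and 2 lower (4.36% and 1.85% of all genes), and DESeq2 called 13 and 4 (8% and 4.3%). As a share of all reads, the members took 1.852%, 1.197% and 1.604% in Tdrd6a IP replicates 1, 2 and 3 and 1.25%, 1.22% and 1.08% in input replicates 1, 2 and 3, so the groups overlapped through Tdrd6a IP replicate 2. How many members passed changed with single libraries left out. It was 4 higher and 0 lower without Tdrd6a IP replicate 1, and 16 and 5 without replicate 2. Without input replicates 1, 2 and 3 it was 1, 2 and 2 higher with 0 lower. All genes gave 591 higher and 247 lower with every library, 271 and 60 without Tdrd6a IP replicate 1, and 1185 and 547 without replicate 2. Without input replicates 1, 2 and 3 all genes gave 170 and 23, 239 and 34, and 188 and 10.

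**Figure D1:**
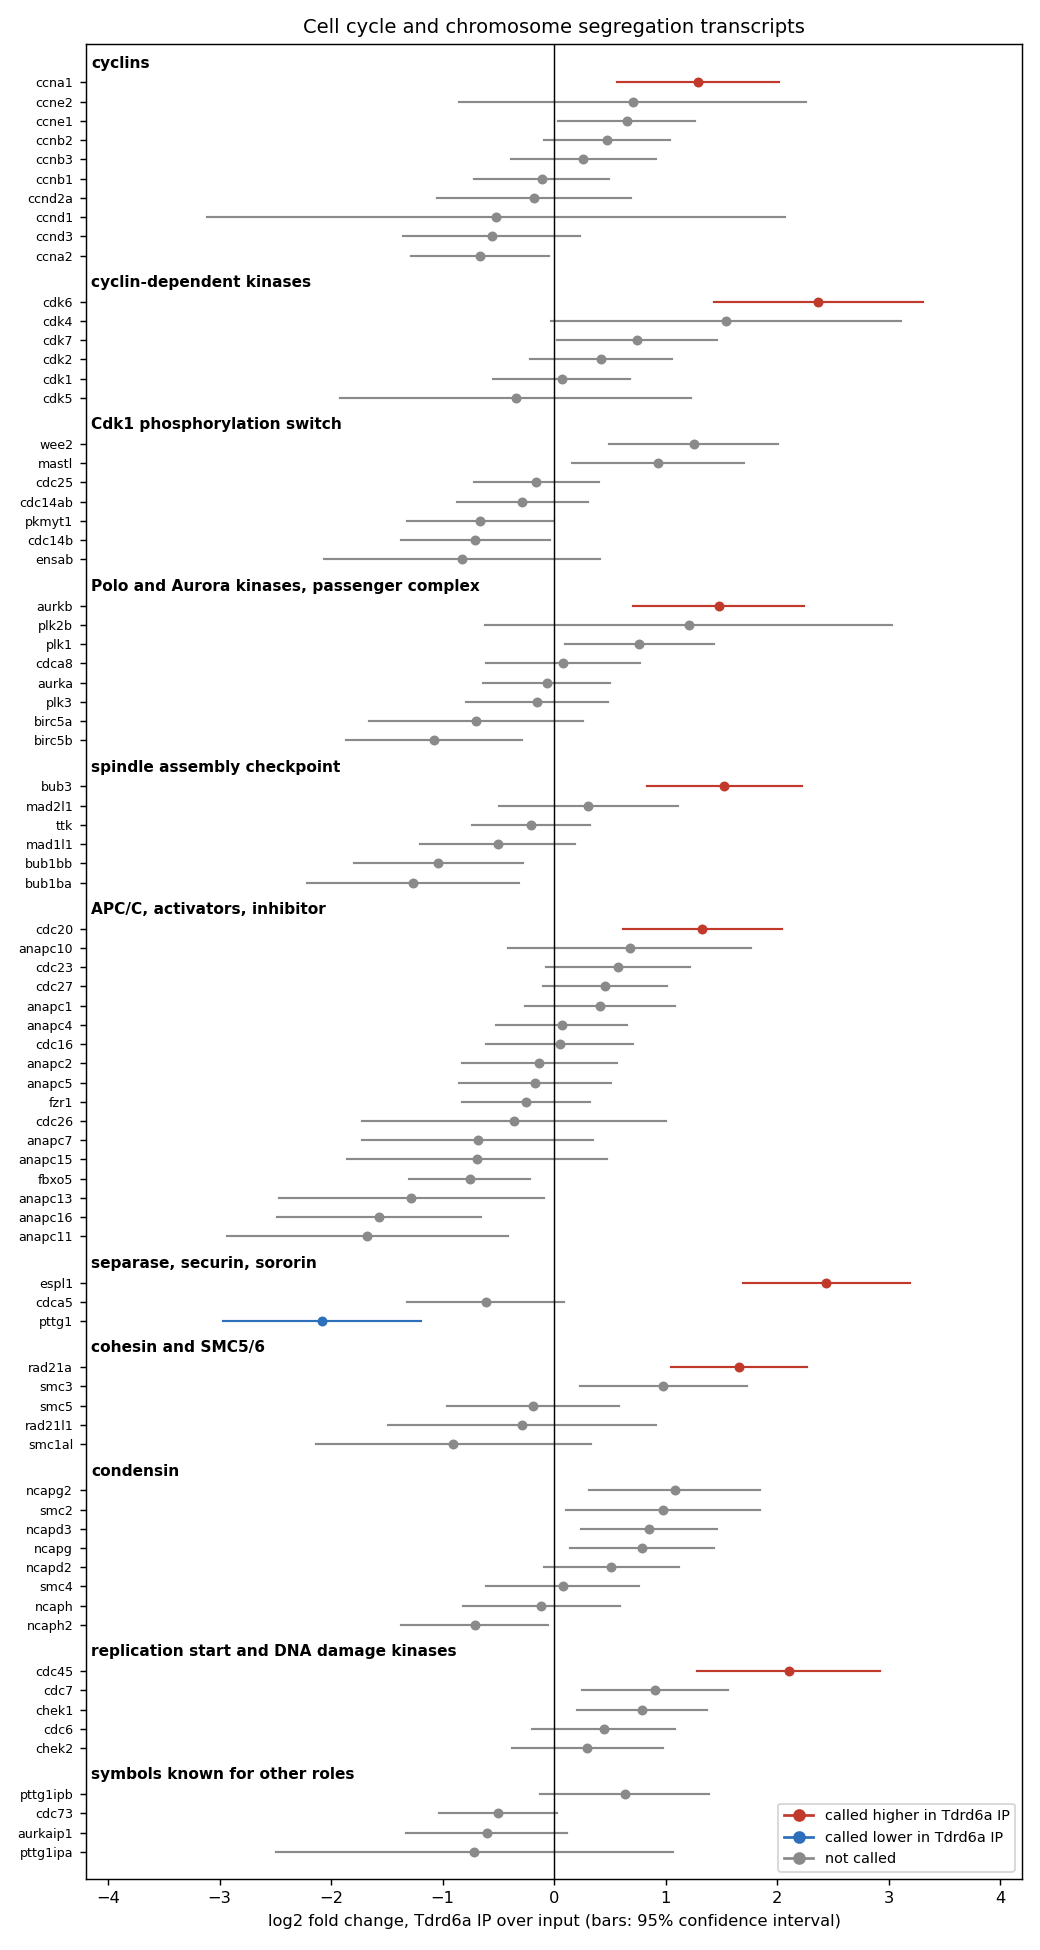
Log2 fold change of Tdrd6a IP over input for each of the 79 members, by role, with 95% confidence intervals from limma; red marks members called higher, blue the member called lower and grey those not called. The 8 called higher are spread over 8 of the 11 role groups, 1 in each, and the estimates range from -2.08 for pttg1 to 2.44 for espl1.

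Cyclins bind and activate Cdks, and only cyclin A1 was called among the 10 tested, where 4.46% of all genes were called higher. The transcript of ccna1 (ENSDARG00000043236), a cyclin of the germ line in mouse, had 10558, 5407 and 8673 normalized counts in Tdrd6a IP replicates 1, 2 and 3, against 4305, 2493 and 3133 in input replicates 1, 2 and 3. All Tdrd6a IP libraries lay above all input libraries. The log2 fold change was 1.29 ± 0.33 (SE, adjusted p = 0.0423). This call was not made by edgeR on recovered reads (adjusted p = 0.0578), with library size only (0.0699), with no filter beyond 1 read (0.0818), without Tdrd6a IP replicate 1 (0.119) or 3 (0.0692), or without input replicate 1, 2 or 3 (0.0961, 0.190 and 0.172).

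The other A-type cyclin, ccna2, lay on the opposite side. It had 1380, 1688 and 1032 normalized counts in Tdrd6a IP and 2465, 1719 and 2254 in input, without overlap, at -0.66 ± 0.28 (adjusted p = 0.206). The transcript of ccnb1, the B-type cyclin that drives entry into mitosis, had 8035, 5358 and 7198 in Tdrd6a IP and 8145, 6344 and 7557 in input, and the groups overlapped. Its estimate was -0.11, with a 95% confidence interval of -0.72 to 0.50, and it was 0.06 without Tdrd6a IP replicate 2. The G1/S cyclin ccne1 (0.65) and the B-type ccnb2 (0.48) had every Tdrd6a IP library above every input library, with adjusted p of 0.207 and 0.323. Across the 10 cyclins, 5 estimates lay above 0 and 5 below, with a median of 0.08. The D-type cyclins ccnd2a, ccnd1 and ccnd3 were at -0.18, -0.52 and -0.56. The transcript of ccnd1 had 0 reads in Tdrd6a IP replicate 2, the shallowest library, and a 95% confidence interval of -3.11 to 2.07. Its means were 46.5 normalized counts in Tdrd6a IP and 46.4 in input, and its estimate was 0.03 with edgeR and 0.02 with DESeq2.

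Among the cyclin-dependent kinases, cdk6 stood out (ENSDARG00000070228), a partner of D-type cyclins in G1. Tdrd6a IP libraries 1, 2 and 3 held 767, 1598 and 462 normalized counts, and input libraries 136, 193 and 147. The lowest Tdrd6a IP value was above the highest input value, and replicate 2 was the highest of the Tdrd6a IP libraries. The difference was 5.17-fold (2.37 ± 0.43, adjusted p = 0.0101), rank 207 of all genes by fold change. Without input replicate 1 or 3 the adjusted p was 0.0697 or 0.0614. For cdk4, the other kinase of D-type cyclins, only 40, 5 and 45 reads in Tdrd6a IP and 17, 6 and 7 in input were recovered, and the estimate of 1.54 had a 95% confidence interval of -0.02 to 3.11.

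The mitotic kinase gene cdk1 had 748, 1222 and 845 normalized counts in Tdrd6a IP and 823, 805 and 1008 in input. These values overlapped, at 0.07 ± 0.28, and the sign turned with library size only (-0.12) and without Tdrd6a IP replicate 2 (-0.14). The S-phase kinase gene cdk2 was at 0.42, and cdk7, whose product activates other Cdks, at 0.74 (adjusted p = 0.450 and 0.218). The transcript of cdk5, an atypical kinase known from neurons, had 1211, 173 and 1018 in Tdrd6a IP and 847, 589 and 888 in input. Tdrd6a IP replicate 2 alone was below the input values, and the estimate of -0.34 was 0.54 without it, 0.03 with edgeR and 0.03 with DESeq2.

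The enzymes that set the phosphorylation of Cdk1 and its targets gave 0 calls among 7 tested with limma. Before adjustment (p under 0.05) 2 were higher and 2 lower, where all genes gave 12.2% and 9%. From recovered reads edgeR gave 0 and DESeq2 2 higher, where they called 4.36% and 8% of all genes higher. The 2 were wee2 and mastl. The transcript of wee2, the oocyte form of the Wee1 kinase in mammals, had 10669, 4557 and 5048 normalized counts in Tdrd6a IP and 3054, 2307 and 2573 in input, without overlap. Its log2 fold change was 1.25 ± 0.34 (adjusted p = 0.0558). It was called with the replicate block (adjusted p = 0.0255), with DESeq2 (0.00448), without Tdrd6a IP replicate 2 (0.00668) and without Tdrd6a IP replicate 3 (0.0450).

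For mastl, the Greatwall kinase that keeps phosphatase PP2A low in mitosis, Tdrd6a IP held 11876, 4846 and 6400 normalized counts and input 3108, 3809 and 4478. The groups did not overlap, and Tdrd6a IP replicate 1 was by far the highest. The estimate was 0.93 ± 0.35 (adjusted p = 0.146), with 0.0487 by DESeq2 and 0.0158 without Tdrd6a IP replicate 2. Without Tdrd6a IP replicate 1 it was 0.57 (adjusted p = 0.327). The other 5 lay below 0. The phosphatase gene cdc25, whose product activates Cdk1, had 6668, 7444 and 5924 in Tdrd6a IP and 7031, 7730 and 7563 in input (-0.16, 95% confidence interval -0.72 to 0.40). The membrane-bound Cdk1 inhibitor pkmyt1 was at -0.66, and the phosphatase genes cdc14ab and cdc14b at -0.29 and -0.71. For pkmyt1 and cdc14b all Tdrd6a IP values lay below all input values. The PP2A inhibitor gene ensab, a substrate of Greatwall, was at -0.83 with at most 56.0 normalized counts in any library. These 5 had adjusted p from 0.208 to 0.779.

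The Aurora and Polo kinases and the chromosomal passenger subunits gave 1 call among 8 genes, where all genes gave 4.46% higher. This was the kinase gene aurkb (ENSDARG00000037640), called higher. Aurora B is the enzyme of the chromosomal passenger complex, which corrects attachments at centromeres and later acts in cytokinesis. Its transcript had 10692, 6783 and 4820 normalized counts in Tdrd6a IP replicates 1, 2 and 3 and 2394, 3513 and 1928 in input replicates 1, 2 and 3. Each Tdrd6a IP library exceeded each input library, and the difference was 2.78-fold (1.48 ± 0.35, adjusted p = 0.0318). Without Tdrd6a IP replicate 1 the adjusted p was 0.0934, without input replicates 1, 2 and 3 it was 0.144, 0.0691 and 0.167, and with no filter beyond 1 read it was 0.0695.

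Partners of Aurora B in the complex did not share this value. Survivin is encoded by birc5a and birc5b, and birc5b had 235, 252 and 192 normalized counts in Tdrd6a IP and 780, 380 and 369 in input, with all Tdrd6a IP values lower. Its estimate was -1.08 ± 0.36 (adjusted p = 0.103, 0.0274 by DESeq2), and birc5a was at -0.70. The Borealin gene cdca8 was at 0.08 (95% confidence interval -0.61 to 0.77), and no row with the symbol of the scaffold INCENP was among the members. The paralog aurka, which acts at centrosomes and spindle poles, had 3856, 2617 and 2921 in Tdrd6a IP and 3085, 3295 and 3322 in input, at -0.07.

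Polo-like kinases Plk1 and Plk3 differ in use, with Plk1 acting in mitosis and Plk3 better known from stress responses in mammals. For plk1 the Tdrd6a IP libraries held 28760, 24142 and 16062 normalized counts and the input libraries 12907, 14057 and 12535, without overlap (0.76 ± 0.30, adjusted p = 0.171, and 0.0394 without Tdrd6a IP replicate 3). For plk3 they held 20674, 13152 and 13698 against 16429, 16784 and 18612 in input, with overlap (-0.15, adjusted p = 0.822). The value of plk2b, 1.21, rested on 5 to 27 reads per Tdrd6a IP library and 1 to 23 per input library.

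In the spindle assembly checkpoint, which delays anaphase until chromosomes are attached, 1 of 6 members was called higher (4.46% of all genes were). This was bub3 (ENSDARG00000075883), whose product brings Bub1 and BubR1 to kinetochores. It had 2440, 1192 and 1634 normalized counts in Tdrd6a IP and 723, 484 and 560 in input, without overlap, a 2.88-fold difference (1.53 ± 0.32, adjusted p = 0.0187). It was not called without Tdrd6a IP replicate 1 (adjusted p = 0.0735) or without input replicate 1, 2 or 3 (0.0654, 0.0976 and 0.0921).

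The genes named for BubR1, the partner of Bub3 in the inhibitory complex, had all Tdrd6a IP values below all input values. For bub1bb these were 730, 301 and 642 in Tdrd6a IP and 992, 1082 and 1150 in input (-1.04 ± 0.34, adjusted p = 0.103). For bub1ba they were 174, 75.2 and 214 against 449, 356 and 256 in input (-1.26 ± 0.43, adjusted p = 0.111). With the replicate block these p-values were 0.0541 and 0.0565, still not called. The kinase gene ttk (Mps1), which starts checkpoint signalling, was at -0.21, and mad1l1 and mad2l1, which form the Mad1 and Mad2 template of the inhibitory complex, were at -0.51 and 0.31. These 3 overlapped between groups.

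The APC/C is the ubiquitin ligase of anaphase. Of 17 members in this group 1 was called higher (5.88%, against 4.46% of all genes), the activator gene cdc20 (ENSDARG00000020192). Tdrd6a IP libraries held 21356, 9975 and 11107 normalized counts and input libraries 5430, 5109 and 5360. Input values were close to each other, and all Tdrd6a IP values were higher, replicate 1 most of all. The difference was 2.51-fold (1.33 ± 0.32, adjusted p = 0.0363). It missed the threshold without Tdrd6a IP replicate 1 (0.99, adjusted p = 0.0587), without input replicate 1, 2 or 3 (0.149, 0.152 and 0.153) and with no filter beyond 1 read (0.0677). The other activator, fzr1 (Cdh1, ENSDARG00000015254), had 1513, 1511 and 1815 in Tdrd6a IP and 2097, 1515 and 2212 in input (-0.25). The inhibitor gene fbxo5 (Emi1) had 2366, 2237 and 1926 against 4029, 3356 and 3631 in input, all lower (-0.76 ± 0.25, adjusted p = 0.0983), and was called by DESeq2 (0.0293) and without Tdrd6a IP replicate 2 (0.0452).

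Of the 14 subunits of the APC/C itself, limma called 0. Before adjustment (p under 0.05) 3 were lower and 0 higher, where all genes gave 9% and 12.2%. From recovered reads edgeR and DESeq2 each called 1 lower, where they called 1.85% and 4.3% of all genes lower. That subunit was anapc16, with 38.2, 41.4 and 44.6 normalized counts in Tdrd6a IP and 158, 126 and 111 in input, a log2 fold change of -1.57 ± 0.42 with an adjusted p of 0.050015, just above the threshold. It was called in 7 of 13 alternatives, among them the replicate block (0.0373) and without Tdrd6a IP replicate 2 (0.0431). The RING subunit gene anapc11, which recruits the ubiquitin-conjugating enzyme, had 48.0, 109 and 19.3 in Tdrd6a IP and 196, 179 and 117 in input (-1.67 ± 0.57, adjusted p = 0.113). With the replicate block its adjusted p was 0.0333, and without Tdrd6a IP replicate 2 it was 0.0126. Without Tdrd6a IP replicate 3 the estimate was -1.102 (adjusted p = 0.270).

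The small subunits of the APC/C are given as a group chosen after the values were seen, with no limit of size set and without a test. Estimates of anapc11, anapc16, anapc13, anapc15 and cdc26 were all below 0, at -1.67, -1.57, -1.28, -0.69 and -0.36. Their means over all libraries were low, at 18.75 to 112 normalized counts, with 6 to 29 reads in Tdrd6a IP replicate 2. The transcript of anapc13 was called without Tdrd6a IP replicate 2 (-1.84, adjusted p = 0.0285). The other 9 overlapped with these in their estimates. They include the scaffold genes anapc1, anapc4 and anapc5, the cullin subunit gene anapc2 and the repeat protein genes cdc16, cdc23 and cdc27, and ranged from -0.68 for anapc7 to 0.68 for anapc10, with a median of 0.07. The mean of anapc10, the highest of all 14 by estimate, was 84.05 normalized counts, within the range of the small subunits. For cdc23 and cdc27 all Tdrd6a IP values lay above all input values, at 0.57 and 0.46 (adjusted p = 0.296 and 0.336).

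**Figure D2:**
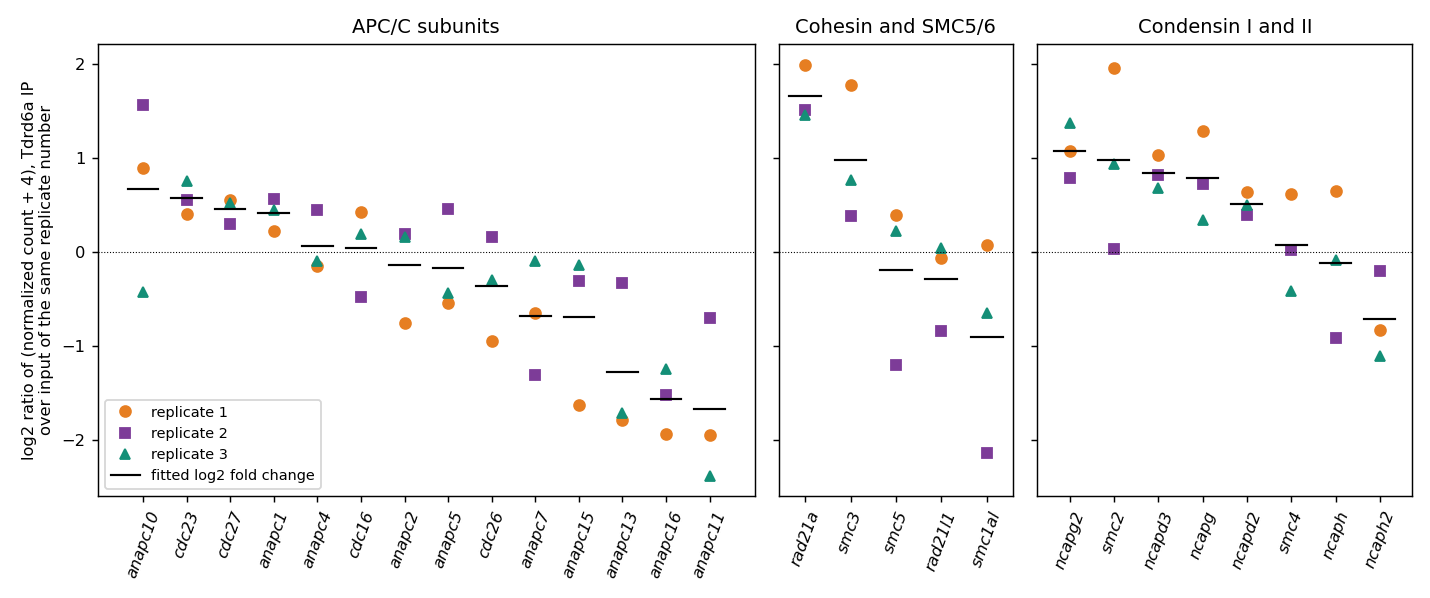
Log2 ratio of (normalized count + 4) of each Tdrd6a IP library over the input library of the same replicate number, for the subunits of the APC/C, cohesin with the SMC5-SMC6 complex, and condensin; black bars give the fitted log2 fold change. The libraries of replicate 2 lie lowest for smc1al, at -2.14, while rad21a is between 1.46 and 1.999 in all 3 pairs.

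Separase and its inhibitor gave the largest difference in each direction among the members. The separase gene espl1 (ENSDARG00000075354) had 37339, 15220 and 22729 normalized counts in Tdrd6a IP and 4554, 4136 and 4293 in input. The lowest Tdrd6a IP value was far above the highest input value. Means were 25096 ± 11248 in Tdrd6a IP and 4328 ± 211 in input (SD, n = 3 each), a 5.42-fold difference (2.44 ± 0.34, adjusted p = 0.00283), rank 193 of all genes. It took 0.239%, 0.1004% and 0.194% of all reads in Tdrd6a IP replicates 1, 2 and 3, against 0.0388%, 0.0351% and 0.0318% in input. The call was made in all 13 alternatives, with estimates from 2.104 to 2.75 and adjusted p up to 0.0332.

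The securin gene pttg1 (ENSDARG00000075421), whose product holds separase inactive until anaphase, was the only member called lower. It had 43.1, 48.9 and 32.6 normalized counts in Tdrd6a IP, from 62, 13 and 27 reads, and 186, 215 and 162 in input, from 166, 293 and 237 reads. The groups did not overlap, and the ratios within same-numbered libraries were close, at -2.01, -2.05 and -2.18 on the log2 scale. The difference was 4.23-fold (-2.08 ± 0.40, adjusted p = 0.0142). The call was not made without Tdrd6a IP replicate 1 (adjusted p = 0.0515) or without input replicate 1, 2 or 3 (0.0734, 0.0744 and 0.0588), with estimates between -1.93 and -2.26 over all alternatives. Sororin, which protects cohesin until anaphase, is encoded by cdca5, and its values overlapped between groups (-0.61, adjusted p = 0.304).

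Cohesin is the ring that holds sister chromatids together. Its kleisin gene rad21a (ENSDARG00000086515), the target of separase, had 4877, 2906 and 3539 normalized counts in Tdrd6a IP and 1217, 1012 and 1282 in input, without overlap. This 3.16-fold difference (1.66 ± 0.28, adjusted p = 0.00709) was not called without input replicate 1 or 2 (adjusted p = 0.0536 and 0.0538). Another row with the symbol rad21a reached at most 2.1 normalized counts in a library, and whether reads were split between the copies was not tested.

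The SMC subunits that form the ring with Rad21 did not lie together. For smc3 the Tdrd6a IP libraries held 8060, 3226 and 3983 normalized counts and the input libraries 2340, 2465 and 2329, all higher in Tdrd6a IP (0.98 ± 0.34, adjusted p = 0.118). It was called by DESeq2 (0.0290) and without Tdrd6a IP replicate 2 (0.0126), and was at 0.59 (0.257) without Tdrd6a IP replicate 1. For smc1al, named as an Smc1a-like gene, they held 2275, 410 and 1366 against 2160, 1822 and 2142 in input, with overlap (-0.90 ± 0.54, adjusted p = 0.391). The estimate of smc1al was -0.21 without Tdrd6a IP replicate 2 and -1.44 without replicate 1 (adjusted p = 0.690 and 0.160). The SMC5-SMC6 repair complex gene smc5 (-0.19) and the meiotic kleisin gene rad21l1 (-0.29) also overlapped. For smc5 Tdrd6a IP replicate 2 alone was below every input library, at 726 normalized counts against 1189 to 1673 in input.

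Condensin compacts chromosomes in mitosis, and limma called 0 of its 8 genes. Before adjustment (p under 0.05) 4 were higher and 1 lower, where all genes gave 12.2% and 9%. From recovered reads edgeR called 0 and DESeq2 1 higher, smc2, where they called 4.36% and 8% of all genes higher. The median log2 fold change was 0.65, against -0.01 for all genes, and 6 estimates lay above 0 (49.6% of all genes did). The condensin II gene ncapg2 had 715, 605 and 461 normalized counts in Tdrd6a IP and 337, 349 and 175 in input, without overlap (1.08 ± 0.35, adjusted p = 0.0950), and with the replicate block it was called (0.0354). The shared subunit gene smc2 had 7435, 2192 and 3628 against 1903, 2149 and 1889 in input (0.98 ± 0.39, adjusted p = 0.182). Its Tdrd6a IP replicate 2 was just above the highest input value, and without that library the adjusted p was 0.00746. Without Tdrd6a IP replicate 1 the estimate was 0.51 (adjusted p = 0.421). Its partner smc4 overlapped between groups, at 0.08 (95% confidence interval -0.61 to 0.76).

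Within each condensin the kleisin gene had the lowest estimate. In condensin II, ncapd3 (0.85, adjusted p = 0.0987, and 0.0384 without Tdrd6a IP replicate 2) and ncapg2 were above 0, and the kleisin gene ncaph2 had 282, 395 and 241 normalized counts in Tdrd6a IP and 502, 454 and 523 in input (-0.71 ± 0.30, adjusted p = 0.202). In condensin I, ncapg (0.79) and ncapd2 (0.51) were above 0, and the kleisin gene ncaph was at -0.11, with overlap, or 0.17 without Tdrd6a IP replicate 2 and 0.00 without input replicate 2. The adjusted p-values of ncapg, ncapd2 and ncaph were 0.141, 0.323 and 0.883. This order was noticed after the values were seen.

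All 5 genes of replication start and the DNA damage kinases had estimates above 0 (49.6% of all genes did). Of these 5, 1 was called higher, where all genes gave 4.46%. This was cdc45 (ENSDARG00000043720), a part of the helicase that opens DNA at the fork. It had 8208, 2685 and 4187 normalized counts in Tdrd6a IP and 1087, 953 and 1114 in input. Every Tdrd6a IP value was more than 2 times the highest input value, with a 4.29-fold difference (2.102 ± 0.37, adjusted p = 0.00976). The adjusted p was 0.0639, 0.0598 and 0.0575 without input replicates 1, 2 and 3.

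For cdc7, the kinase that fires origins, the Tdrd6a IP libraries held 1953, 1057 and 1245 normalized counts and the input libraries 758, 620 and 830. The groups did not overlap (0.90 ± 0.30, adjusted p = 0.1001), and the call was made by DESeq2 (0.0440) and without Tdrd6a IP replicate 2 (0.0190). The kinase gene chek1, which slows the cycle when replication stalls, had 1110, 790 and 801 against 547, 496 and 496 in input, without overlap (0.79 ± 0.27, adjusted p = 0.107, and 0.0477 without Tdrd6a IP replicate 2). The licensing factor gene cdc6 (0.44) and the DNA break kinase gene chek2 (0.30) overlapped between groups, with adjusted p of 0.424 and 0.640.

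The symbol pattern also took in 4 genes known for other roles, and 0 of them were called by limma, edgeR or DESeq2, with 0 before adjustment (p under 0.05). The gene of a securin-binding membrane protein, pttg1ipb, was at 0.63 (adjusted p = 0.327). Without Tdrd6a IP replicate 2 it was 1.01 (0.0175), and without replicate 1 it was 0.31 (0.696). The gene of a Paf1 complex subunit, cdc73, was at -0.50, aurkaip1, known from the mitochondrial ribosome in human, at -0.60, and pttg1ipa at -0.72. The Tdrd6a IP mean of pttg1ipa was 8.63, so it passed the minimum mean of 10 through input (21.1).

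**Figure D3:**
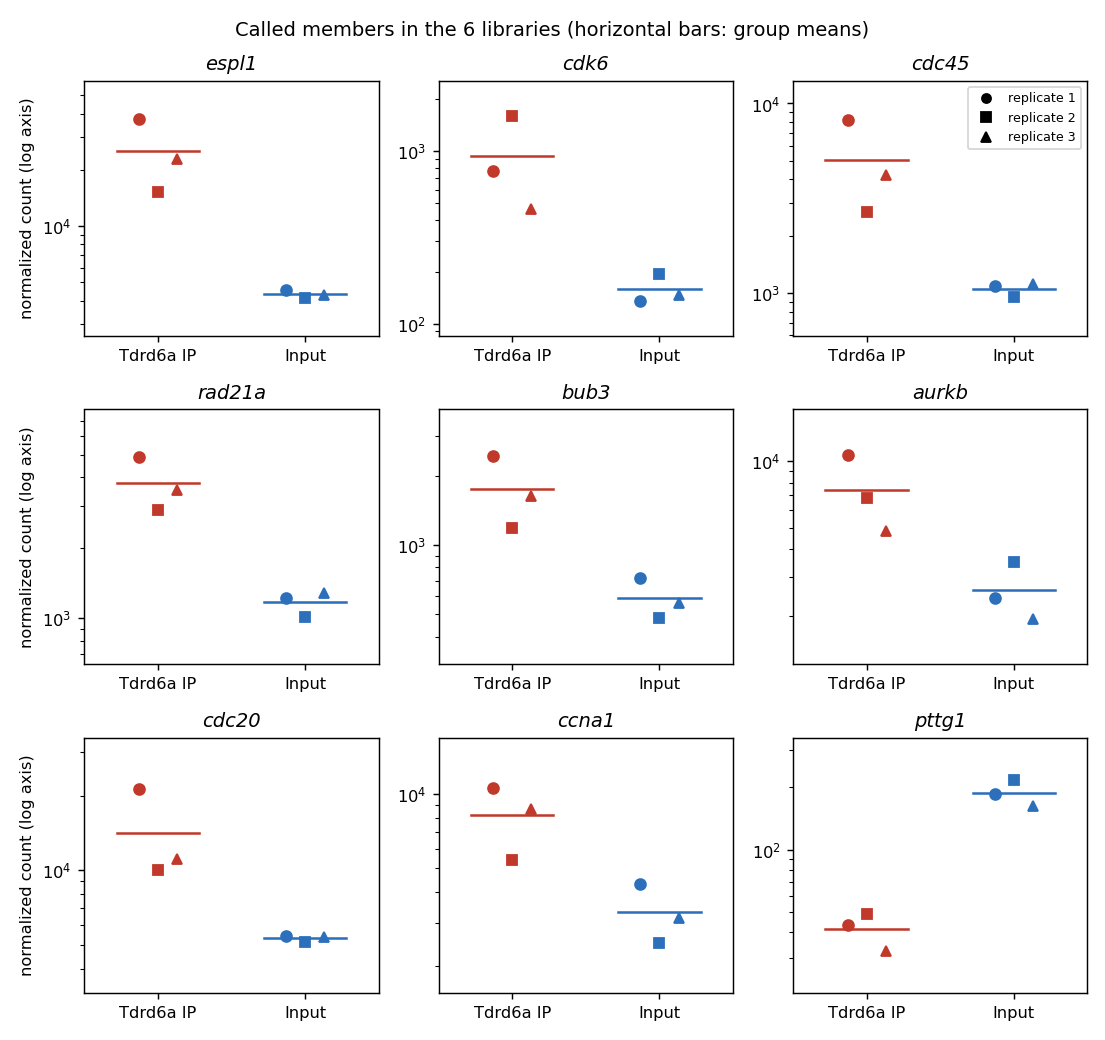
Normalized counts (log axis) of the 9 called members in each Tdrd6a IP and input library, with a symbol per replicate number and a horizontal bar at the group mean. No panel shows overlap between the groups; replicate 1 is the highest Tdrd6a IP library in 7 of the 8 members called higher, cdk6 being the exception.

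The size of the difference varied between the Tdrd6a IP libraries. Of the 8 members called higher, Tdrd6a IP replicate 1 was the highest of the 3 in 7 and replicate 2 was the lowest in 6. Of the 591 genes called higher over the whole table, replicate 1 was the highest in 64.8% and replicate 2 the lowest in 29.3%. In 65.7% of those genes replicate 3 was the lowest. Over all 79 members, replicate 1 was the highest in 45 and replicate 2 the lowest in 39 (34.0% and 38.9% of all genes tested). Median log2 ratios over the input mean were 0.22, 0.05 and -0.03 for the members in Tdrd6a IP replicates 1, 2 and 3, against -0.06, -0.06 and -0.07 for all genes. For the 11 germ plasm transcripts the same medians were 5.40, 6.65 and 4.10, with replicate 2 the highest, so their order differed from that of the members. These shares were not tested. Replicate 1 was the deepest library and replicate 2 the shallowest, and the part of depth in this pattern was not tested.

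Ratios between partners were taken within each library, as the difference of their log2(normalized count + 4). Their level depends on gene length, so only the difference between groups is read. The 24 pairs of paralogs, antagonists or complex partners were chosen and ordered with the values known, often with a gene called higher over its partner, so the ratios restate the fold changes above library by library and are given without a test. For 18 pairs the groups did not overlap, and in all 18 the ratio was higher in Tdrd6a IP. The chosen order of the genes bears on that direction, and no share over other gene pairs was computed to set beside this count. The ratio of espl1 to pttg1 was 9.63, 8.17 and 9.28 on the log2 scale in Tdrd6a IP and 4.58, 4.24 and 4.70 in input, a 22.9-fold difference. That of bub3 to bub1bb was 1.73, 1.97 and 1.34 in Tdrd6a IP and -0.45, -1.16 and -1.03 in input, again without overlap.

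The ratio of ccna1 to ccna2 was 2.93, 1.68 and 3.07 in Tdrd6a IP and 0.80, 0.53 and 0.47 in input. That of aurkb to aurka was 1.47, 1.37 and 0.72 against -0.37, 0.09 and -0.78 in input, and that of wee2 to pkmyt1 4.74, 4.11 and 3.60 against 2.51, 2.19 and 2.02. In these 3 pairs every precipitate lay above every input library. The activators cdc20 and fzr1 gave 3.82, 2.72 and 2.61 in Tdrd6a IP and 1.37, 1.75 and 1.28 in input. Within the cohesin ring, smc3 over smc1al gave 1.82, 2.96 and 1.54 in Tdrd6a IP and 0.12, 0.44 and 0.12 in input. Pairs with overlap were ncapd2 and ncapg, ccne1 and ccne2, cdk2 and cdk1, cdk6 and cdk4, smc2 and smc4, and ncapg and ncaph.

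**Figure D4:**
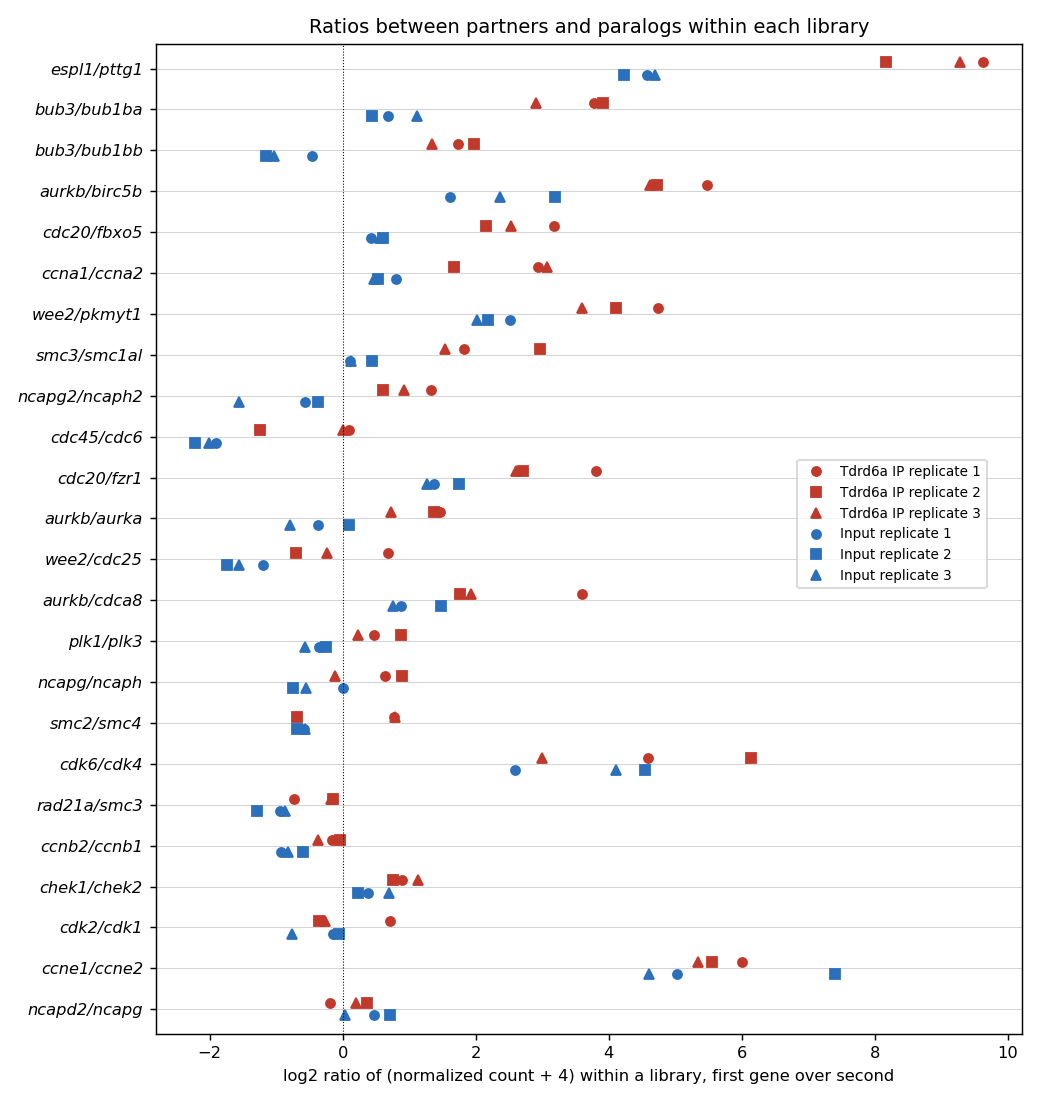
Log2 ratio of (normalized count + 4) between the genes of each of 24 pairs within every library, the first gene over the second; red is Tdrd6a IP, blue is input and the symbol gives the replicate number. The ratio of espl1 to pttg1 is at least 8.17 in Tdrd6a IP and at most 4.70 in input, and 6 pairs overlap between the groups.

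Genes that work with the members but have other symbols were counted in 5 lists. Of 24 kinetochore and centromere genes limma called 0. Before adjustment (p under 0.05) 2 were higher and 4 lower, where all genes gave 12.2% and 9%. Of the 24, edgeR called 0 and DESeq2 1 higher and 1 lower. Of all genes, edgeR called 4.36% higher and 1.85% lower, and DESeq2 8% and 4.3%. Their median log2 fold change was -0.29. The lowest p belonged to cenpk (-1.25, adjusted p = 0.0574, and 0.0171 with the replicate block, 0.0153 by DESeq2, 0.0299 with library size only and 0.0494 at a minimum mean of 50), followed by zw10 (-0.80) and cenpw (-1.20), with adjusted p of 0.117 and 0.128. These encode parts of the inner kinetochore and, for zw10, of its checkpoint corona.

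Of 12 genes of cohesin loading and protection, 1 was called higher (4.46% of all genes were). The loader subunit gene mau2 had 858, 808 and 597 normalized counts in Tdrd6a IP and 381, 389 and 280 in input (1.098 ± 0.29, adjusted p = 0.0485). It was not called by edgeR (0.0514), with library size only (0.113), with no filter beyond 1 read (0.0885), or without Tdrd6a IP replicate 1 (0.162) or input replicate 1, 2 or 3 (0.128, 0.116 and 0.192). The cohesin regulator genes pds5b (0.57) and esco2 (-0.55) were not called (adjusted p = 0.247 and 0.253). Of 29 spindle assembly genes, 1 was called higher (3.45%), tubgcp3 of the microtubule-nucleating ring complex (1.19 ± 0.29, adjusted p = 0.0338). Lower were 0 by limma, 3 before adjustment (9% of all genes), 0 by edgeR and 2 by DESeq2 (4.3% of all genes). With library size only or no filter beyond 1 read the adjusted p of tubgcp3 was 0.0551 or 0.0710. Without Tdrd6a IP replicate 1 or input replicate 1, 2 or 3 it was 0.115, 0.131, 0.116 or 0.143. The spindle factor gene tpx2 was at -0.90 and the GTPase gene ran at 0.94 (adjusted p = 0.0822 and 0.0875).

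Replication licensing and fork genes gave 2 calls on each side among 37 (5.41% each), where all genes gave 4.46% higher and 1.86% lower. Both called higher belong to DNA polymerase epsilon. The catalytic subunit gene pole had 3560, 2117 and 1594 normalized counts in Tdrd6a IP and 495, 831 and 810 in input (1.72 ± 0.35, adjusted p = 0.0170), and pole2 had 1540, 654 and 346 against 176, 221 and 106 in input (2.11 ± 0.51, adjusted p = 0.0393). Lower were gins2 of the replicative helicase (-1.39 ± 0.30, adjusted p = 0.0209) and, chosen after its values were seen, rpa3 of the single-strand binding complex (-1.59 ± 0.42, adjusted p = 0.0479). Leaving out Tdrd6a IP replicate 1 or any input library ended all 4 calls, with adjusted p from 0.0572 to 0.186. Those of pole2 and rpa3 also ended with no filter beyond 1 read (0.0808 and 0.0857), and that of rpa3 without Tdrd6a IP replicate 3 (0.105).

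Regulators of egg arrest and of Cdk activity had 4 higher and 2 lower of 29. The ubiquitin ligase adaptor gene fbxw7, which targets cyclin E, had 7541, 8399 and 2830 normalized counts in Tdrd6a IP and 705, 894 and 640 in input (2.93 ± 0.40, adjusted p = 0.00278). The MAP kinase gene mapk3 had 10324, 10975 and 4576 against 1478, 1403 and 1388 in input (2.49 ± 0.34, adjusted p = 0.00267). Both were called in all 13 alternatives. The adaptor gene fbxw11a, a beta-TrCP of the SCF ligase, was at 1.90 ± 0.29 (adjusted p = 0.00413), and lost its call without input replicate 1 (0.0511). Both called lower, chosen after their values were seen, were ccng1 (-1.08) and skp1 (-1.27), each lost when Tdrd6a IP replicate 1 or any input library was left out. The call of skp1 also ended without Tdrd6a IP replicate 3 and with no filter beyond 1 read. Over the 5 lists, 8 of 131 genes were higher and 4 lower (6.11% and 3.05%), against 4.46% and 1.86% of all genes tested.

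**Figure D5:**
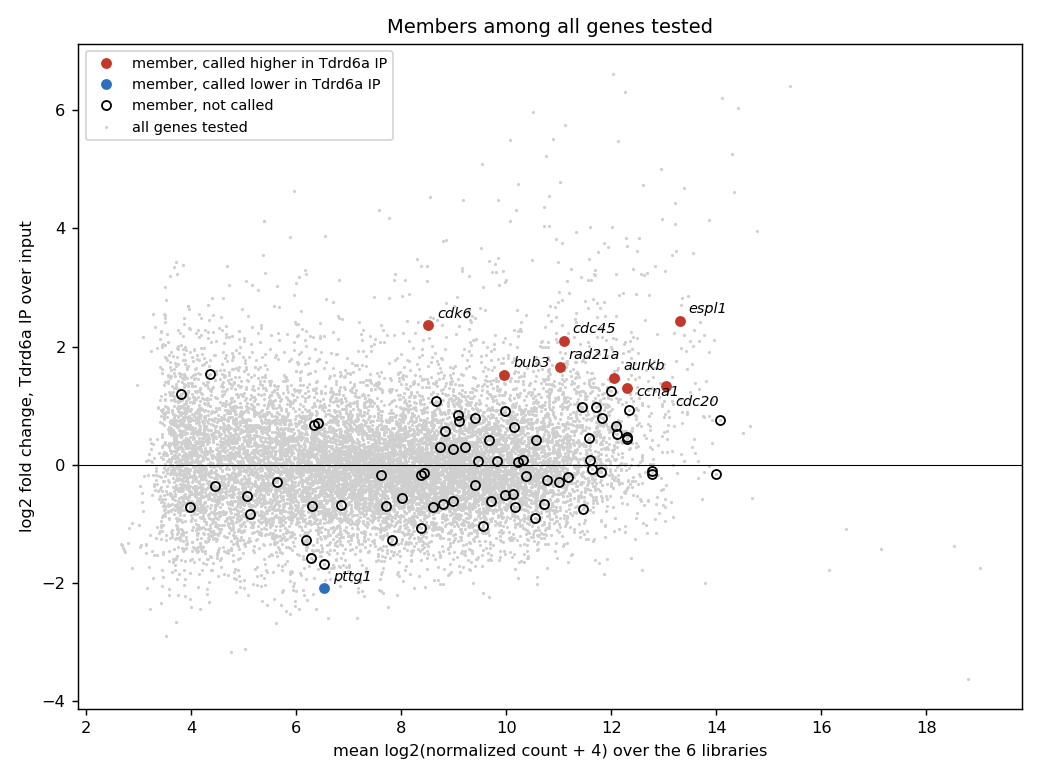
Log2 fold change of Tdrd6a IP over input against the mean log2(normalized count + 4) of the 6 libraries for the 13265 genes tested (grey), with the members as circles, filled where called. The called members lie well below the largest fold changes of the table, which reach 6.61, and pttg1 is the lowest member at -2.08.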

How the data were processed

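RNA from Tdrd6a immunoprecipitates and input of zebrafish zygotes was extracted with Trizol, made into libraries with the NuGEN Ovation RNA-seq System V2 and sequenced as 50 bp single-end reads, per the labels' protocols. TopHat and DESeq are listed, without versions, with the build Zv9, per the submitters' processing notes. How reads were counted, against which annotation and whether by strand is not stated, so reads of a gene and of one overlapping it on the other strand cannot be separated. The authors deposited a signal per gene, which from the values themselves is a normalized read count: whole reads scaled by a factor for each library. At least 99.97% of values above 0 in each library lay within 0.06 of a whole multiple of 1 constant, the value of 1 read, and whole reads were recovered by dividing by it. The labels name no molecular identifiers.

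Group and replicate number came from sample titles. The test was limma 3.58.1 (abundance trend, robust, two-sided) in R 4.3.3 on log2(normalized count + 4) for the 13265 genes with a mean of at least 10, with Benjamini-Hochberg adjustment over them and calls at an adjusted p under 0.05. Fold changes are on that scale, which understates low genes. A symbol in the table was the only means of matching. edgeR 4.0.16 and DESeq2 1.42.0 on recovered reads, a replicate block, library size only, a pseudocount of 1, other minimum levels and leaving out each library were alternatives. The fit was tested on simulated data, with the same spread beyond sampling noise set for every gene and library and no pairing. These data differ in that, so the test does not measure how the fit performs here. The members and lists were chosen with earlier results of these data known. Genes named are those called and, per role, those with the highest input mean, smallest p and extreme fold changes; in other lists, the 3 of smallest p; further members are partners or paralogs of these. Deviations from the group mean correlated at 0.294, 0.305 and 0.301 between libraries of the same number and at -0.0704 to -0.210 between others, so the numbers pair the libraries. The main fit, which gave the calls, standard errors and intervals above, has no term for this pairing. The replicate block takes it in, and called 10 members higher and 3 lower. Libraries of a group differed by more than sampling noise. Sequences and coordinates were not used here. A gene of the list of egg arrest and Cdk regulators is counted in its totals but not reported here. Tables were joined in Python 3.11.15 (numpy 2.4.6, pandas 2.3.3) and figures drawn in matplotlib 3.10.9.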

Additional observations from a re-analysis of the deposited data

How the results depend on the processing

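With all libraries, 8 members were higher and 1 lower, and 8 and 4 genes of the 5 further lists. With replicate number as a block 3 members were lower, and by edgeR, with library size only, with a pseudocount of 1 and at a minimum mean of 50 it was 2, in each case with anapc16 added. By DESeq2 13 members were higher and 4 lower, and 13 and 8 list genes, where 8% and 4.3% of all genes were. With library size only, 5 list genes were higher and 7 lower, and with no filter beyond 1 read 5 members were higher, and 4 list genes higher and 2 lower. Over all genes, library size only gave 474 higher and 383 lower, and no filter beyond 1 read gave 399 and 101. Leaving out 1 library gave 1 to 16 members higher and 0 to 5 lower, and 2 to 23 list genes higher and 0 to 6 lower. Among the members the fewest higher calls were reached without input replicate 1, and the most calls in each direction without Tdrd6a IP replicate 2. Over all genes these settings gave 170 to 1185 higher and 10 to 547 lower, with the 10 reached without input replicate 3. The cause was not tested; leaving out a library leaves fewer samples, and no filter beyond 1 read adjusts over 19507 genes in place of 13265. The replicate block also added calls of wee2, ncapg2 and anapc11 and ended none among the 9 called members. Signs were followed through every setting for 53 of the genes named, not for all members. Among these, signs turned, in genes that were not called, for cdk5 (0.027 with edgeR, 0.033 with DESeq2, -0.85 to 0.54 leaving out 1 library), cdk1 (-0.12 with library size only, -0.14 to 0.22 leaving out 1 library), ccnb1 (-0.23 to 0.057) and ncaph (-0.32 to 0.17). Each turn with a library left out was without Tdrd6a IP replicate 2, and for ncaph also without input replicate 2 (0.0014). Outside these genes, ccnd1 turned from -0.52 to 0.028 with edgeR and 0.018 with DESeq2. Library size only moved the median of all genes to -0.18, against -0.01, and all 9 called members kept their direction there. Members with few reads, such as cdk4, ccnd1, plk2b, pttg1ipa and ensab, have coarse values in Tdrd6a IP replicate 2, where 1 read is worth 3.76 normalized counts. No group had the 4 samples needed to look for outlying libraries.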

Other observations

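In several genes outside the members, Tdrd6a IP replicate 2 stood alone below all other libraries, and these were picked after their values were seen. The spindle pole gene aspm had 4860, 624 and 7625 normalized counts in Tdrd6a IP replicates 1, 2 and 3, against 3422, 2169 and 3134 in input. The kinetochore scaffold gene casc5 had 3485, 399 and 3819 against 2004, 1603 and 2091 in input. The DNA polymerase delta subunit gene pold3 had 801, 79.0 and 672 against 992, 938 and 1004 in input, all lower in Tdrd6a IP. None was called: the log2 fold changes of casc5 and pold3 were -0.11 and -1.46 (adjusted p = 0.960 and 0.346), and that of aspm was -0.00094.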
